A study of Rattus norvegicus with 6 samples.

Results

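Long noncoding RNAs (lncRNAs) are transcripts that are not translated into protein, and many are annotated close to or across one another, as alternative forms of 1 locus or as transcripts of neighbouring loci. A dense chain of neighbouring lncRNAs was taken here as a stretch of the rat genome in which 8 or more listed lncRNAs followed one another, each starting at most 5000 nt past the largest end reached so far. Of the 18649 lncRNAs listed for INS-1 cells, 555 belonged to such chains, and they formed 57 of the 11840 chains on Rnor_6.0 (a lncRNA with no neighbour in reach counts as a chain of its own). The rule used positions only and no expression value. The question was whether lncRNAs that lie side by side changed together when the cells were treated.

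INS-1 cells come from a rat insulinoma, make insulin and stand in for pancreatic beta cells in culture. RNA-Seq compared 3 untreated samples (Con) with 3 samples kept for 24 h in 25 mM glucose together with 0.5 mM palmitate (HG/PA), a model of glucolipotoxicity, which is the injury of beta cells by high glucose together with a saturated fatty acid. Nothing in the sources used here says how many separate cultures stood behind the samples beyond the words "biological triplicate", so the p-values measure the spread between these 3 and 3 samples. The tables held lncRNAs only, so the identity of the cells was not checked against marker genes. In a cell population, a lower level per cell and fewer cells that express a lncRNA cannot be told apart.

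The chains differed widely in size. The chains held from 8 to 19 lncRNAs: 18 chains had 8, 16 had 9, 11 had 10, and the 3 longest had 14, 17 and 19. Another 39 chains held 7 lncRNAs and lay just outside the rule. The dense chains were found on 20 of 21 chromosomes and covered 3690 to 456672 nt each (median 24198 nt). Their lncRNAs overlapped more often than the rest: 450 of the 555 (81.1%) shared genomic positions with another listed lncRNA, against 30.4% of all listed lncRNAs. The rule itself favours this, since overlapping lncRNAs are always joined. The members were also less often unspliced, as judged from a transcript length equal to the genomic span (27.2% against 45.9%), and their median length was 711 nt against 663 nt.

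Levels of single lncRNAs are given as FPKM (fragments divided by transcript length in kilobases and by the depth of the sample) or as fragments, and those of a whole chain as the sum of FPKM times length in kilobases, called FPM, which has the same scaling but no division by length. This sum does not move when fragments are assigned to 1 overlapping lncRNA or to another. How a fragment that lies on several overlapping lncRNAs was counted, and whether its strand was used, is not given in the sources used here, and the tables carry no strand. For this reason each overlapping member is named as such, and its own value is uncertain. The summed level of a dense chain, as a mean over the 6 samples, ran from 1.299 to 445 FPM, with a median of 25.3. A single lncRNA held a median of 43.0% of the level of its chain, and more than 50% in 16 of the 57 chains.

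The tables implied totals of 12491755 to 13770572 fragments per sample, of which 28102 to 34272 fell on the dense chains. Of all lncRNA fragments these chains held 2.57%, 2.61% and 2.61% in Con 1, 2 and 3 against 2.49%, 2.76% and 2.55% in HG/PA 1, 2 and 3. The means were 2.60% ± 0.022 (SD, n = 3) and 2.60% ± 0.14 (SD, n = 3), and the two-sided exact permutation test gave p = 1, where 0.1 is the smallest p that 3 against 3 samples allow. Relative to the library total, the dense chains summed to 2489, 2510 and 2430 FPM in Con against 2220, 2420 and 2348 in HG/PA, so every HG/PA sample was below every Con sample (difference -147, exact permutation p = 0.1, the smallest possible). All listed lncRNAs together were lower too, at 95276 ± 2031 FPM in Con and 89672 ± 2315 in HG/PA (SD, n = 3, exact permutation p = 0.1). In the share of lncRNA fragments, the high value of HG/PA 2 included a chain on chromosome 17 that stood apart in this library, described further on. Without that chain the shares were 2.52%, 2.53% and 2.52% in Con against 2.40%, 2.55% and 2.46% in the HG/PA samples.

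Most lncRNAs of the dense chains did not pass the test between the groups. Of the 555, 520 reached an FPKM of 0.1 in 3 samples or more and were tested within a limma fit over all 17558 lncRNAs that met this minimum. A lncRNA was called upregulated or downregulated when it changed at least 2-fold on the log2(FPKM + 0.1) scale with a Benjamini-Hochberg adjusted p below 0.05. By this rule 4 members were upregulated (0.769% of those tested) and 10 downregulated (1.92%), and over all tested lncRNAs the shares were 0.655% upregulated and 0.832% downregulated. With an unadjusted p below 0.05 in place of the adjusted one, 10 members were higher (1.92%) and 25 lower (4.81%), against 2.59% and 3.9% of all tested lncRNAs. Of the 4 upregulated members, 3 reached the minimum in the HG/PA samples alone and had no fragment in Con, so the minimum itself selected for the difference. Of all 115 upregulated lncRNAs, 37 reached it in HG/PA alone. Among the downregulated, 0 of 10 members and 21 of all 146 lncRNAs reached it in Con alone. The 3 HG/PA values all lay above the 3 Con values for 23 members (4.42%) and below them for 78 (15%), against 7.44% and 16.2% of all tested lncRNAs. The median log2 fold change was -0.11 both in the dense chains and over all tested lncRNAs, so a member at 0 stood slightly above the typical lncRNA. The balance of directions at an unadjusted p and in groups without overlap depended on this shift. By the adjusted rule, rescaling by the median of ratios gave 4 upregulated and 8 downregulated members of 521 tested. Over all 17551 tested lncRNAs it gave 135 and 90, against 115 and 146 without rescaling. Quantile normalization gave 4 and 7 members of 521, and 123 and 90 of 17549 lncRNAs. By this rule more members stayed downregulated than upregulated, while the balance over all tested lncRNAs reversed. After rescaling by the median of ratios the median over all tested lncRNAs was 0.0078, and 14 members were higher and 18 lower at an unadjusted p (2.69% and 3.45%, against 3.32% and 2.68% of all tested). The members whose groups did not overlap were then 55 higher and 57 lower (10.6% and 10.9%), against 13.9% and 10.1% of all tested lncRNAs. Quantile normalization gave the same 14 and 18 at an unadjusted p (2.69% and 3.45%, against 3.11% and 2.83% of all tested). Without overlap it gave 44 and 62 (8.45% and 11.9%), against 10.6% and 11.5% of all tested.

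The 14 called lncRNAs came from 10 of the 57 chains, and 2 chains held more than 1 of them: 4 of the 8 lncRNAs of a chain on chromosome 3, and a pair on chromosome 20. Called lncRNAs, called chains, the longest chains, the chains of highest level and the most abundant lncRNA of each of these chains were named by a fixed rule. The other chains and members described beside them were picked after their values were seen. The tables pair no identifier with a gene name, so no function is given.

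Neighbours within a chain lay on the same side more often than not. Among 463 pairs of tested lncRNAs that follow one another in a dense chain, both members lay above or both below the overall median change in 275 (59.4%, exact 95% binomial interval 54.8 to 63.9). The share was 58.2% in chains of 2 to 7 lncRNAs and 53.2% for lncRNAs that follow one another on a chromosome but belong to different chains. The shares with and without overlap were close: 58.8% of 255 overlapping pairs and 60.1% of 208 pairs without overlap lay on the same side. Among pairs in which both members had 10 fragments or more on average, the shares were 60.9% in dense chains, 61.5% in chains of 2 to 7 and 54.5% across chains. The median difference between the log2 fold changes of 2 neighbours was 0.47 in dense chains, 0.41 in shorter chains and 0.49 across chains. These shares are a description, since pairs share members, libraries and depth, and the intervals cover counting error only.

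**Figure D1:**
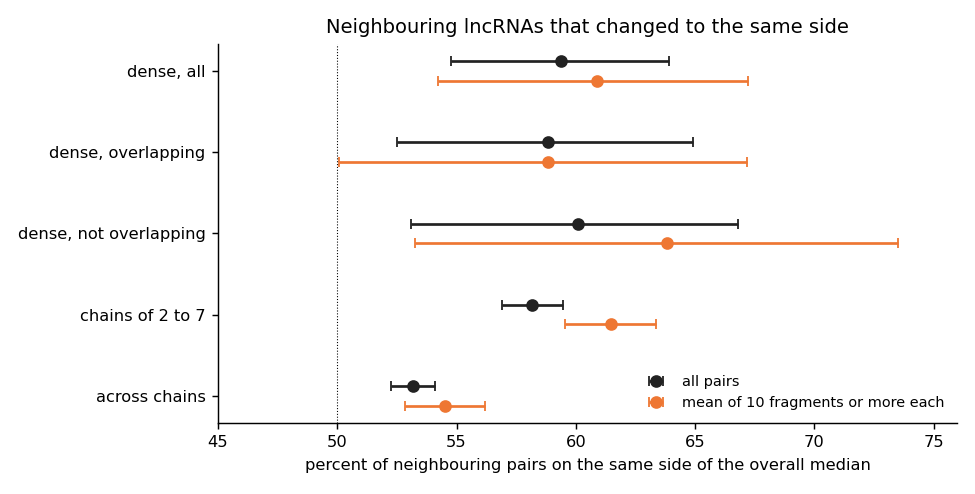
Percent of neighbouring lncRNA pairs (x axis) whose log2 fold changes lay on the same side of the overall median, for pairs within dense chains (all, overlapping, not overlapping), within chains of 2 to 7 lncRNAs and across chains (y axis). Black points hold all tested pairs, orange points those with 10 fragments or more in each lncRNA, bars are exact 95% binomial intervals, and the dotted line marks 50%. The dense chains stand at 59.4% and pairs across chains at 53.2%.

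The chains as units were then compared, by the same limma fit on the log2 of the summed level over all 10472 chains with enough signal. A chain was called when its sum changed at least 1.5-fold with an adjusted p below 0.05. Of the 57 dense chains, 1 was upregulated (1.75%) and 4 were downregulated (7.02%), where 1.7% of all tested chains were upregulated and 2.97% downregulated. The Con and HG/PA samples did not overlap in 7 dense chains with higher and 15 with lower sums in HG/PA (12.3% and 26.3%), against 8.86% and 18.6% of all tested chains. After rescaling by the median of ratios 2 dense chains were upregulated and 3 downregulated, and the groups did not overlap in 10 with higher and 9 with lower sums. Of all tested chains, 2.15% were then upregulated and 1.62% downregulated, and the groups did not overlap in 14.1% with higher and 11.8% with lower sums. In 36 of the 57 dense chains the sum was lower in HG/PA (24 after that rescaling). The shift below 0 was not particular to dense chains. Their median change was -0.10 on the log2 scale, against -0.12 over all chains. Within chains the lncRNAs scattered around their chain with a median SD of 0.53 on the log2 scale, from 0.23 to 2.11. In 3 chains every tested lncRNA had a log2 fold change below 0, and in 1 chain every one was above 0. Set against the median of all lncRNAs in place of 0, every tested lncRNA was lower in 1 chain, on chromosome 3, and higher in 1, on chromosome 2.

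**Figure D2:**
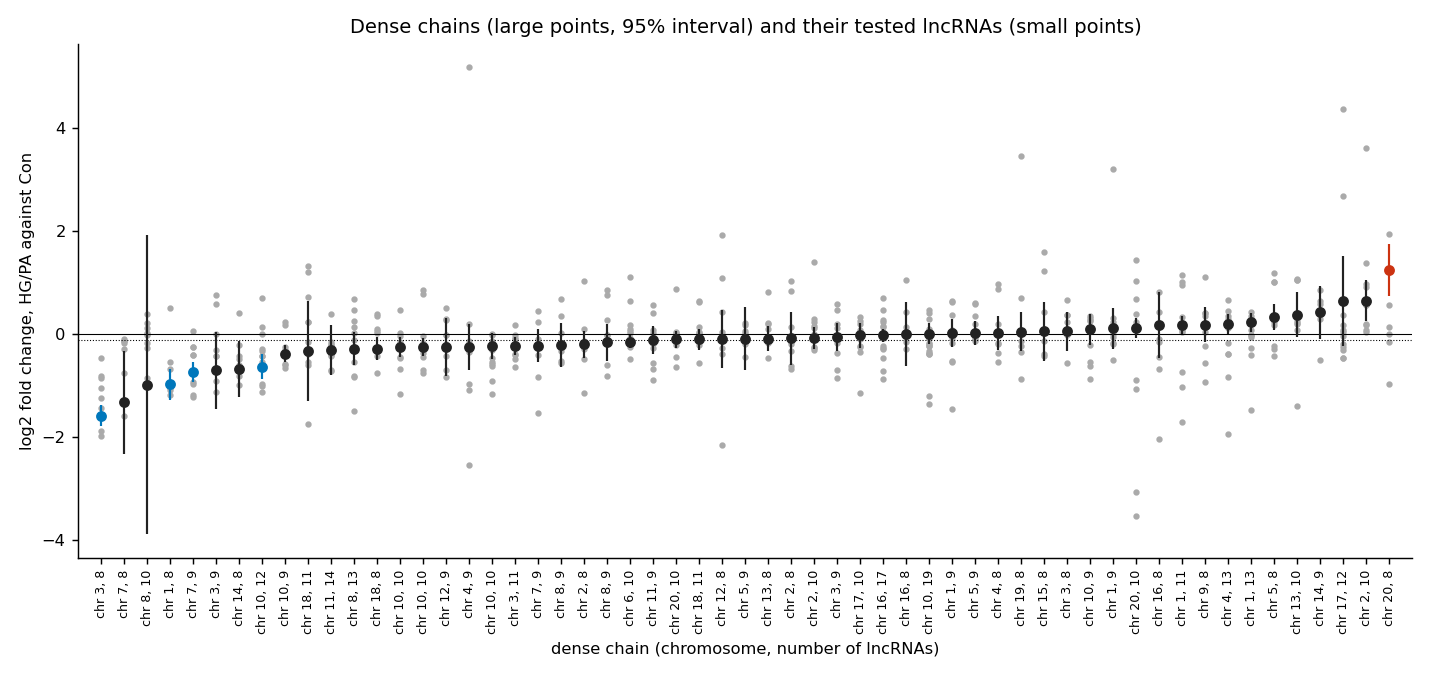
Log2 fold change of HG/PA against Con (y axis) for the 57 dense chains (x axis, ordered by the change of the summed level and named by chromosome and number of lncRNAs). Large points with bars are the summed level with its 95% interval (blue, downregulated; red, upregulated; black, not called), small grey points are the tested lncRNAs, and the dotted line is the median of all tested lncRNAs. The 4 downregulated chains lie between -1.60 and -0.64, the upregulated one at 1.23, and single lncRNAs lie far from their chain in chains that were not called. The highest point is a lncRNA with no fragment in Con, so its height depends on the pseudocount of 0.1.

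The clearest joint change was a decrease on chromosome 3. The chain at chr3:2566424-2574529 held 8 lncRNAs within 8106 nt, and all 8 had lower values in HG/PA, also relative to the overall median. Its sum stood at 38.1, 40.3 and 37.2 FPM in Con against 13.2, 12.3 and 12.6 in HG/PA. The 2 groups lay far apart, with means of 38.5 ± 1.63 and 12.7 ± 0.468 (SD, n = 3), a 3.04-fold decrease (log2 fold change -1.60, SE 0.09, limma adjusted p = 0.00056). Among the 10472 chains this adjusted p was the 3rd smallest. The call did not rest on 1 lncRNA, since without the most abundant member the change was -1.36 (adjusted p = 0.0031).

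Within that chain the 4 called lncRNAs followed one another. NONRATT019034.2, the most abundant, had FPKM values of 26.6, 30.0 and 22.8 in Con against 6.03, 7.498 and 7.78 in HG/PA, and fell by 1.88 on the log2 scale (SE 0.15, limma adjusted p = 0.0044). The neighbour on its left, NONRATT019033.2, went from 14.0, 16.9 and 19.5 to 5.56, 4.24 and 3.01 FPKM and fell by 1.98 (adjusted p = 0.013). Every Con value of both lncRNAs was above every HG/PA value. To the right, NONRATT019035.2 fell by 1.45 (from 5.203 ± 0.341 to 1.85 ± 0.18 FPKM, SD, n = 3, adjusted p = 0.012 in limma) and NONRATT019036.2 by 1.24 (from 7.23 ± 0.886 to 3.00 ± 0.439 FPKM, adjusted p = 0.021 in limma).

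The remaining 4 lncRNAs of the chromosome 3 chain did not pass. NONRATT017875.2, at the left end and free of overlap, had 63, 34 and 41 fragments in Con against 35, 20 and 21 in HG/PA (log2 fold change -0.86, limma adjusted p = 0.22), so its groups overlapped. NONRATT019031.2 and NONRATT019032.2 had at most 8 fragments in any sample, and NONRATT017876.2 at most 2. NONRATT019034.2 overlaps NONRATT019035.2, and NONRATT019033.2 overlaps both low members, while NONRATT019036.2 overlaps none. With 1 sample left out, NONRATT019033.2 had an adjusted p of 0.063, 0.057 and 0.060 (without Con 2, Con 3 and HG/PA 2) and NONRATT019035.2 of 0.060, 0.056 and 0.051 (the same samples). NONRATT019036.2 kept its call only without HG/PA 3, with limma adjusted p from 0.060 (without Con 1) to 0.086 (without Con 2) otherwise, the values without Con 3, HG/PA 1 and HG/PA 2 being 0.075, 0.066 and 0.079.

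**Figure D3:**
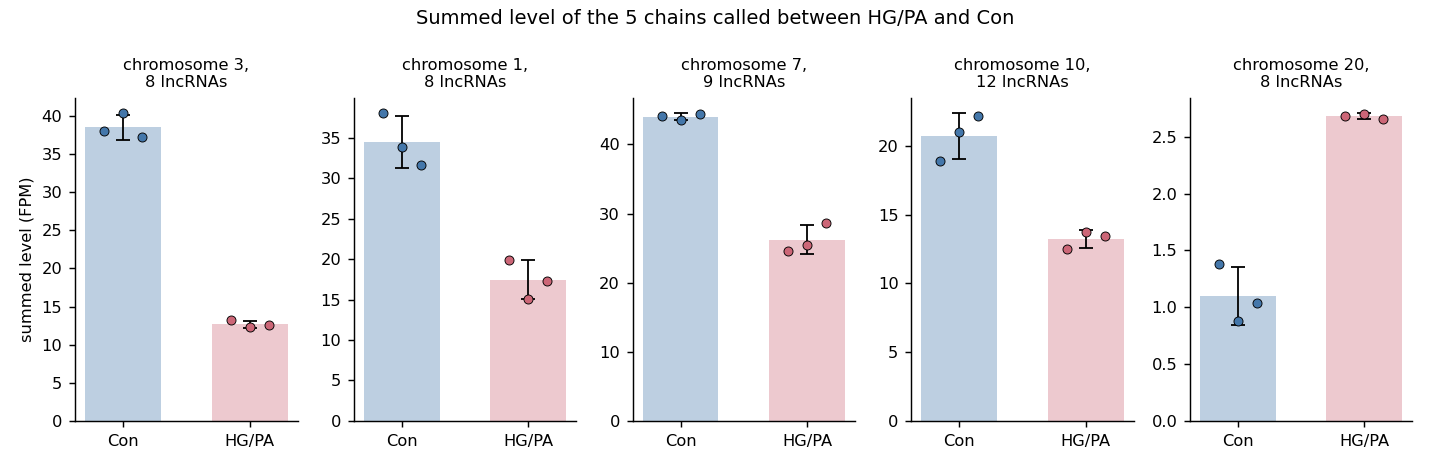
Summed level in FPM (y axis, from 0 in each panel) of the 5 chains called between the groups. Points are samples, bars the means and error lines the SD of 3 samples per group. No chain shows an overlap between the groups, and the chromosome 3 chain went from 38.5 to 12.7.

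A chain on chromosome 1 was downregulated, with 1 called lncRNA and similar values in the 2 beside it. The chain at chr1:222232351-222258978 held 8 lncRNAs, of which 6 were tested and 5 were lower, both than 0 and than the overall median. Its sum was 38.1, 33.9 and 31.7 FPM in Con against 19.9, 15.1 and 17.4 in HG/PA, without overlap (log2 fold change -0.98, SE 0.13, limma adjusted p = 0.0086). NONRATT003517.2, which held 56.1% of the level and overlaps NONRATT003518.2, had 300, 269 and 222 fragments in Con against 115, 113 and 121 in HG/PA and fell by 1.19 (adjusted p = 0.0057 in limma).

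The next 2 lncRNAs of the chromosome 1 chain had fold changes of similar size that did not pass the adjusted threshold. NONRATT003518.2 and NONRATT003519.2, each overlapping its neighbour, had log2 fold changes of -1.05 (adjusted p = 0.11) and -1.09 (adjusted p = 0.064) in the same limma fit. NONRATT003515.2, at the left end, had 46 fragments in HG/PA 1 and 0 in the other 5 samples. Without NONRATT003517.2 the sum of the chain had a log2 fold change of -0.73 and was no longer called (adjusted p = 0.094), as with the mean of the members' log2 values (-0.68, adjusted p = 0.13).

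Chromosome 7 carried a pair of dense chains 69456 nt apart, with 1 lncRNA of 2 to 4 fragments per sample between them. In the right one, chr7:70556003-70592564, 8 of 9 lncRNAs were lower in HG/PA, and the same number lay below the overall median. The sum stood at 44.1, 43.5 and 44.5 FPM in Con against 24.6, 25.5 and 28.6 in HG/PA, again without overlap (log2 fold change -0.75, SE 0.085, adjusted p = 0.0053 in limma). Its members split along the chain: the 5 on the left had log2 fold changes between -0.42 and 0.04, and the 4 on the right, none of which overlaps another lncRNA, between -1.23 and -0.93. This split was seen after the values were known.

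Of those 4, NONRATT026837.2 was called, with 35, 41 and 44 fragments in Con against 16, 14 and 22 in HG/PA (fell by 1.23, limma adjusted p = 0.040). NONRATT025875.2, which held 54.6% of the level, went from 378, 307 and 296 fragments to 146, 180 and 193 and fell by 0.93 (adjusted p = 0.024), short of 2-fold. NONRATT026837.2 lost its call when any sample but HG/PA 3 was left out (limma adjusted p 0.084, 0.13 and 0.12 without Con 1, Con 2 and Con 3, and 0.12 and 0.11 without HG/PA 1 and HG/PA 2). Without NONRATT025875.2 the log2 fold change of the sum was -0.51 (adjusted p = 0.062), and that of the mean of log2 values was -0.63 (adjusted p = 0.091), neither of them called.

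In the left chain, chr7:70474643-70486547, all 8 lncRNAs had log2 fold changes below 0, 7 of them below the overall median, and the sum still did not pass (-1.33, 95% interval -2.34 to -0.33, limma adjusted p = 0.13). NONRATT026827.2 held 85.5% of the level. It had 973, 1008 and 1062 fragments in Con against 566, 568 and 123 in HG/PA, so the groups did not overlap and HG/PA 3 stood far below HG/PA 1 and 2. Without it the other 7 lncRNAs summed to 10.5 ± 3.09 FPM in Con against 8.28 ± 1.86 in HG/PA (SD, n = 3, exact permutation p = 0.4). The 2 chromosome 7 chains were not shown to differ in their change (exact permutation test of the log2 ratio of their sums, p = 0.7).

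On chromosome 10, a chain that decreased lay next to one that was not called. The chain at chr10:15143725-15165830 held 12 lncRNAs, 9 of the 11 tested ones below 0 and 8 below the overall median, and its sum was 18.9, 21.0 and 22.2 FPM in Con against 12.5, 13.7 and 13.4 in HG/PA (log2 fold change -0.64, SE 0.10, limma adjusted p = 0.018). After rescaling by the median of ratios the change was -0.51, under 1.5-fold, and the call was lost. The chain at chr10:15195048-15217132 began 29218 nt further on, with no listed lncRNA between, and stood at 11.3, 13.6 and 10.4 against 12.01, 12.2 and 13.0 (log2 fold change 0.08, 95% interval -0.22 to 0.39, adjusted p = 0.78). The log2 ratio of the second chain to the first was between -1.09 and -0.62 in Con and between -0.17 and -0.05 in HG/PA, without overlap (exact permutation p = 0.1, the smallest possible).

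The decrease of the first chromosome 10 chain was shared unevenly by its members. NONRATT004110.2 had 42, 33 and 36 fragments in Con against 18, 15 and 17 in HG/PA and fell by 1.13 (limma adjusted p = 0.032), while NONRATT004111.2, which overlaps it, had a log2 fold change of 0.00 (SE 0.29). NONRATT005282.2, the most abundant and overlapped by 3 lncRNAs, had 122, 116 and 99 against 69, 76 and 88 fragments (-0.55, adjusted p = 0.16). NONRATT005285.2 had 32, 49 and 58 against 22, 28 and 19 (-0.99), with groups that did not overlap.

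The calls on chromosome 10 were near the threshold. The sum had an adjusted p of 0.063, 0.060, 0.060, 0.055 and 0.056 without Con 2, Con 3, HG/PA 1, HG/PA 2 and HG/PA 3, and was called only without Con 1. NONRATT004110.2 lost its call whichever sample was left out (limma adjusted p 0.073 to 0.12). Rescaling the samples moved the sum to -0.51, under 1.5-fold, and without the most abundant lncRNA it was -0.70 (adjusted p = 0.065).

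The single upregulated chain rested on few fragments and few members. The chain at chr20:5344607-5410527 held 8 lncRNAs, all under the span of NONRATT017132.2, and had 19, 11 and 13 fragments in Con against 34, 37 and 35 in HG/PA. Its sum went from 1.10 ± 0.255 to 2.68 ± 0.0249 FPM (SD, n = 3, log2 fold change 1.23, SE 0.21, limma adjusted p = 0.023). NONRATT017140.2 had 6, 3 and 5 fragments in Con against 14, 21 and 25 in HG/PA and was upregulated (1.93, SE 0.32, adjusted p = 0.035). NONRATT017579.2 had 3, 2 and 2 against 10, 9 and 3 (1.19, adjusted p = 0.26).

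The other 6 lncRNAs of this chain held at most 4 fragments each and summed to 0.562 ± 0.142 against 0.611 ± 0.156 FPM (SD, n = 3, exact permutation p = 0.5). A count of 3 fragments, the floor used here for detection, corresponds to 0.218 to 0.240 FPM. Without NONRATT017140.2 the log2 fold change of the chain was 0.56 (limma adjusted p = 0.42). Its call was lost without Con 2 (0.067), Con 3 (0.072), HG/PA 1 (0.072), HG/PA 2 (0.077) or HG/PA 3 (0.073), adjusted p in brackets, and that of NONRATT017140.2 without any 1 sample (adjusted p 0.071 to 0.12).

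On chromosome 2 all 10 lncRNAs lay above 0, the only dense chain in which this was so. At chr2:189423565-189456541 the sum was 11.2, 14.7 and 9.42 FPM in Con against 18.1, 19.1 and 17.1 in HG/PA. The groups did not overlap, but the change was not called (log2 fold change 0.64, 95% interval 0.24 to 1.03, limma adjusted p = 0.079). NONRATT015469.2 had no fragment in any Con sample but 11, 6 and 12 in HG/PA, and was called (adjusted p = 0.0083 in limma). Against a floor of 3 fragments per library it was at least 3.18-fold higher. It met the minimum through HG/PA alone and could not be tested without any 1 HG/PA sample. With no minimum it was called, also without each HG/PA sample (adjusted p 0.030 to 0.049). It overlaps 8 of the other lncRNAs of the chain.

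A pair of abundant chromosome 2 members showed the same direction at smaller size. NONRATT015466.2 had 19, 24 and 16 fragments in Con against 35, 42 and 44 in HG/PA (log2 fold change 0.97), and its groups did not overlap. NONRATT015474.2, the most abundant, had 34, 55 and 37 against 76, 61 and 54 (0.56), where the lowest HG/PA sample was just below the highest Con sample. Without NONRATT015469.2 the other 9 lncRNAs summed to 11.8 ± 2.71 and 17.4 ± 1.21 FPM (SD, n = 3, exact permutation p = 0.1).

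In 2 further chains on chromosome 10 most members had lower values in HG/PA, with a median log2 fold change of -0.51 in the first and -0.36 in the second. At chr10:90344822-90356244 all 10 lncRNAs were below 0, with log2 fold changes from -1.17 (NONRATT006088.2) to -0.02 and 8 of them below the overall median, and the log2 fold change of the sum was -0.25 (limma adjusted p = 0.24). NONRATT004936.2, which held 44.96% of it, had 241, 195 and 220 fragments in Con against 220, 215 and 224 in HG/PA. The sum at chr10:36715549-36733479 was 69.7, 71.5 and 75.7 against 52.9, 54.5 and 58.3 FPM (-0.39, SE 0.07, adjusted p = 0.026), the 6th dense chain with an adjusted p below 0.05, but its change was under 1.5-fold.

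**Figure D4:**
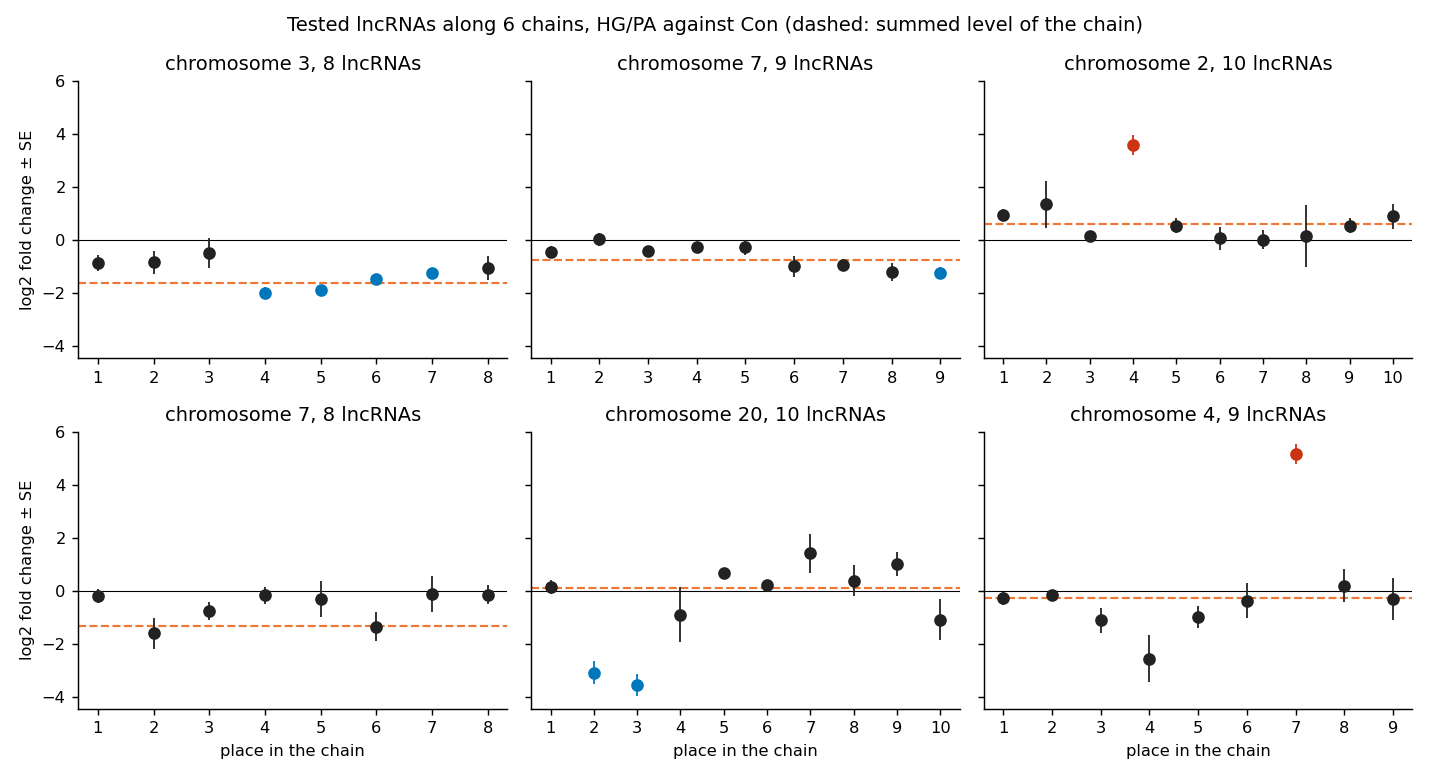
Log2 fold change of HG/PA against Con with its SE (y axis) for each tested lncRNA by its place in the chain (x axis), in 6 chains. Blue and red points are downregulated and upregulated lncRNAs, black points were not called, and the dashed line is the change of the chain's summed level. The upper panels and the lower left one show chains with members on 1 side of 0, except 1 lncRNA at 0.04 in the chromosome 7 chain of 9, and the chains of chromosomes 20 and 4 hold members that went against their neighbours.

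Changes of lncRNAs against their chain were tested directly. Each lncRNA was set against the mean log2 value of the other tested members of its chain in the same sample. This was done over 9809 lncRNAs. Of the 520 members of dense chains, 1 rose above its chain and 1 fell below it (2-fold or more, adjusted p below 0.05). This is 0.192% in each direction against 0.112% and 0.102% over all lncRNAs so tested. With 1 member in each direction these shares cannot be told apart.

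The member that rose was NONRATT021493.2 in the chain at chr4:100210076-100231774. No fragment was listed in any Con sample, and 39, 21 and 22 were listed in HG/PA, at least 9.01-fold higher against a floor of 3 fragments per library (limma adjusted p = 0.0038), and it was called above its neighbours (adjusted p = 0.012). With no fragment in Con, the size of a fitted change depends on the pseudocount, and only the bound is given. It met the minimum through HG/PA alone. With no minimum it was called with all samples (adjusted p = 0.0045) and without each HG/PA sample (0.024 to 0.030). The neighbours did not share this: 7 of the 9 lncRNAs of the chain were lower, and the log2 fold change of the sum was -0.25 (adjusted p = 0.50). NONRATT021491.2, the lncRNA it overlaps, had 165, 44 and 200 fragments in Con against 44, 95 and 172 in HG/PA, so that the groups overlapped widely.

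The member that fell was NONRATT017031.2 in the chain at chr20:3157314-3199288. It had 27, 19 and 28 fragments in Con against 1, 0 and 2 in HG/PA (limma adjusted p = 0.013) and was called below its chain (adjusted p = 0.044). The summed fragments, 74 against 3, were 25.1-fold lower in HG/PA relative to depth, with an exact 95% interval from 8.27 to 125 for counting error alone. The fitted log2 fold change was -3.54 at the pseudocount of 0.1, -1.39 at 1, and -5.15 at 0.01, where the call was lost (adjusted p = 0.062). NONRATT017030.2, which overlaps it, had 19, 19 and 34 against 1, 3 and 3 fragments and fell by 3.08 (adjusted p = 0.019), or by 1.70 at a pseudocount of 1. No sample of 1 group reached the range of the other for either.

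The other 8 lncRNAs of this chromosome 20 chain summed to 16.2, 16.8 and 14.7 FPM in Con against 21.3, 20.02 and 21.8 in HG/PA, higher in each HG/PA sample (exact permutation p = 0.1, the smallest possible). The whole sum was not called, with means of 19.7 and 21.3 (log2 fold change 0.11, limma adjusted p = 0.51). NONRATT017030.2 lost its call without any 1 sample (adjusted p 0.052 to 0.074), and NONRATT017031.2 without Con 1 (0.061), Con 3 (0.056) or HG/PA 1 (0.052). The difference of NONRATT021493.2 from its chain was called without Con 2 and not without Con 1 or Con 3, and could not be tested at the minimum without an HG/PA sample. That of NONRATT017031.2 was called in none of the 6 leave-outs.

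A called lncRNA went against most of its neighbours in 2 more chains, but the direct test against the rest of the chain called neither of these lncRNAs. At chr13:78852519-78856208, 10 lncRNAs lay almost on top of one another within 3690 nt, 8 of the 9 tested ones had log2 fold changes above 0, and NONRATT008372.2 fell by 1.40, from 35, 43 and 36 to 16, 10 and 18 fragments (limma adjusted p = 0.048). The other 9 summed to 7.74 ± 1.33 in Con against 13.0 ± 3.79 FPM in HG/PA (SD, n = 3, exact permutation p = 0.1). Leaving out any 1 sample ended the call of NONRATT008372.2 (adjusted p 0.082 to 0.15), as did rescaling (0.069).

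At chr19:19895862-19913572, NONRATT014519.2 was listed at 0 in the 3 Con samples and with 5, 11 and 17 fragments in HG/PA, at least 3.57-fold higher against the floor (limma adjusted p = 0.016, and 0.069, 0.069 and 0.063 without Con 1, Con 2 and Con 3). It too met the minimum through HG/PA alone. With no minimum it was called with all samples (adjusted p = 0.020) and without HG/PA 1 (0.032) or HG/PA 3 (0.0496), but not without HG/PA 2 (0.082). NONRATT014518.2, which overlaps it, had 15 fragments in Con 1 and 0 in the other 5 samples. Of the 7 tested lncRNAs of the chain, 4 had log2 fold changes below 0 and 3 above. The sum of the chain was not called, with 47 to 64 fragments per sample (log2 fold change 0.04, adjusted p = 0.93).

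The split of fragments between members also differed within a group. In the chromosome 20 chain at chr20:3157314-3199288, NONRATT017506.2 and NONRATT017507.2 start at the same position. The first had 55, 58 and 16 fragments in Con against 76, 72 and 86 in HG/PA, and the second 7, 7 and 52 against 6, 7 and 6. Con 3 thus stood alone in both, low in the first and high in the second, while their sum was 62, 65 and 68 in Con against 82, 79 and 92 in HG/PA.

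**Figure D5:**
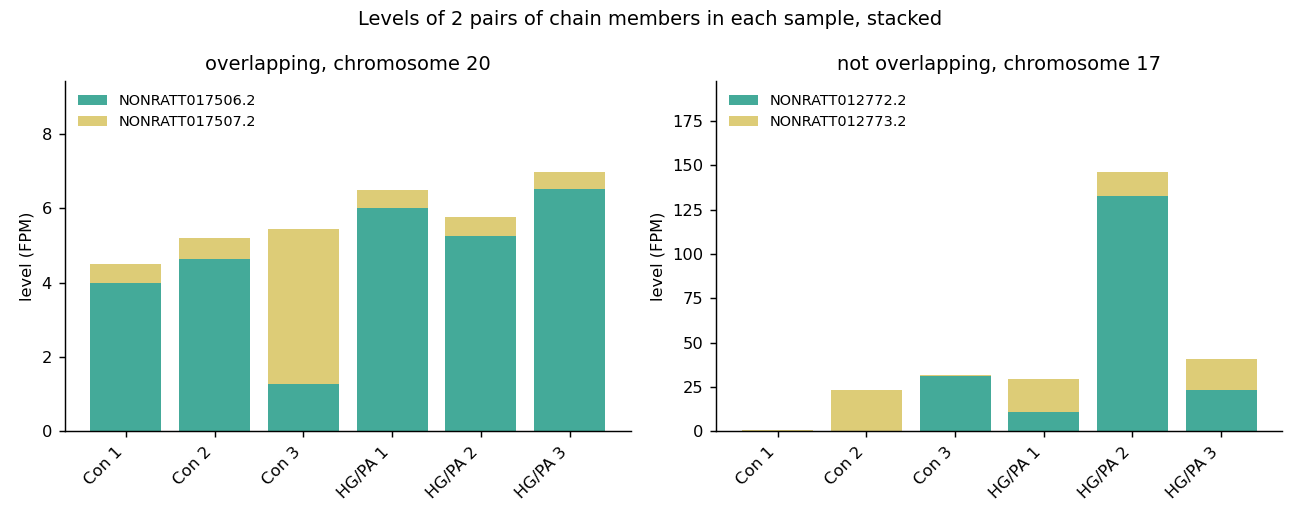
Level in FPM (y axis) of 2 pairs of chain members in each of the 6 samples (x axis), stacked. In the overlapping pair on chromosome 20 the share of each lncRNA differed in Con 3 while the sum stayed between 4.50 and 5.43 in Con, and in the pair on chromosome 17, which does not overlap, the sum itself ran from 1.02 to 32.0 in Con and from 29.6 to 146 in HG/PA.

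Differences of this kind within a group were counted as lncRNAs with 0 fragments in 1 sample and at least 20 in another sample of the same group. In the dense chains 17 of the 327 lncRNAs that reached 20 fragments in any sample did so (5.199%), against 3.79% in chains of 2 to 7 and 0.950% of lncRNAs with no neighbour in reach. Of the 17, 14 were among the 272 overlapping members that reached 20 fragments (5.15%), and 3 among the 55 other members (5.45%). In chains of 2 to 7 the shares were 4.67% of overlapping and 2.89% of other lncRNAs. Over all lncRNAs the share was 2.78%, with 4.72% of overlapping and 1.83% of other lncRNAs. Examples from the dense chains are NONRATT002863.2 on chromosome 1, with 158, 4 and 106 fragments in Con against 151, 120 and 0 in HG/PA, and NONRATT020464.2 on chromosome 4, with 92, 104 and 54 and then 73, 77 and 0.

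In 3 dense chains the summed level of 1 library was more than 2-fold above that of both others of its group, and none of these chains was called. At chr8:115131458-115155546, NONRATT028004.2 had 806 fragments in Con 2 and 3 to 65 in the other 5 samples. The other 9 lncRNAs of this chain summed to 2.04 ± 0.52 and 1.95 ± 0.0428 FPM (SD, n = 3). At chr18:28355634-28386632, NONRATT013324.2 had 529 fragments in Con 2 and 0 to 93 elsewhere, and NONRATT013328.2 had 136 in Con 2 and 10 to 36 elsewhere.

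The third of these chains, chr17:9370865-9640098, held 12 lncRNAs. NONRATT012772.2 had 0, 0 and 392 fragments in Con against 135, 1819 and 308 in HG/PA, and NONRATT012773.2, which starts close to its end, had 14, 289 and 9 against 240, 185 and 233. Neither passed the test, and the summed level had a log2 fold change of 0.64 with a 95% interval from -0.23 to 1.51. The other 10 lncRNAs summed to 52.0 ± 6.47 and 43.9 ± 2.72 FPM (SD, n = 3, exact permutation p = 0.1), lower in each HG/PA sample than in any Con sample, so the whole sum was higher in HG/PA through these 2 lncRNAs.

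The chains with the most members and the highest levels did not pass. The longest, chr10:105781728-105815696, held 19 lncRNAs, and its sum was 126, 142 and 138 FPM in Con against 144, 120 and 144 in HG/PA (log2 fold change 0.00, 95% interval -0.21 to 0.21). NONRATT006311.2 held 54.5% of it, with 969, 918 and 895 against 1021, 965 and 1027 fragments (0.09, SE 0.074). Of its 18 tested lncRNAs 13 were below 0 and 10 below the overall median. NONRATT005102.2 had 18, 12 and 16 against 2, 7 and 6 fragments (-1.21).

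The chain of 17 at chr16:71101728-71245820 was also not called, at 104, 103 and 107 against 102, 105 and 101 FPM (-0.03, 95% interval -0.16 to 0.09), with NONRATT012067.2 as its most abundant lncRNA (-0.08). The highest level of any dense chain was found at chr4:81235164-81257211, with 13 lncRNAs and 458, 396 and 390 FPM in Con against 431, 500 and 495 in HG/PA (0.20, 95% interval 0.00 to 0.39, limma adjusted p = 0.23). NONRATT021428.2 held 59.4% of it (0.28). In the chain of 14 at chr11:31806636-31841403, 12 of 13 tested lncRNAs were below 0 and the groups overlapped, with 119, 77.9 and 81.7 FPM against 67.6, 60.8 and 93.6 (-0.33, limma adjusted p = 0.42). NONRATT006453.2, its most abundant lncRNA, had 519, 98 and 404 fragments in Con against 343, 112 and 399 in HG/PA, so the spread within each group was wider than that between them.

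The last 3 chains named by level or size did not pass either. The chains of 13 at chr1:195072449-195193051 and chr8:61813700-61836793 had log2 fold changes of 0.22 (95% interval 0.04 to 0.41, adjusted p = 0.16 in limma) and -0.29 (95% interval -0.61 to 0.03, adjusted p = 0.28). Neither had an overlap between the groups. The first stood at 50.7, 50.4 and 58.0 FPM in Con against 60.3, 63.0 and 62.3 in HG/PA, and the second at 20.2, 28.3 and 22.1 against 18.4, 18.8 and 19.8. The chain of 10 at chr6:104611013-104615302, all members of which overlap, stood at 110, 107 and 103 against 94.3, 96.3 and 96.8 (-0.16, limma adjusted p = 0.17). Its groups did not overlap either. Their most abundant lncRNAs had log2 fold changes of -0.02 (NONRATT003126.2), 0.13 (NONRATT028611.2) and -0.10 (NONRATT024449.2).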

How the data were processed

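RNA-Seq was performed on 3 Con and 3 HG/PA-treated INS-1 samples, from paired-end strand-specific libraries of total RNA. Per the labels and the methods of the study, reads were mapped to Rnor_6.0 with HISAT2 and FPKM values were computed with StringTie by the authors, who deposited 1 table per sample with the position, the length and the FPKM of each lncRNA. The tables hold no strand and no gene names, and the rat reference tables at hand describe a different assembly, so no names or sequences were matched.

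In each sample the product of FPKM and length was a whole number of equal steps (99.9% or more of the values within 0.1 of a step), and a step was taken as 1 fragment, which also gave the implied depth. Tests used limma 3.58.1 in R 4.3.3 (lmFit, eBayes with a trend) on log2(FPKM + 0.1), or on log2(FPM + 0.1) for sums over chains, with Benjamini-Hochberg adjustment over all lncRNAs or chains tested. The minimum was 0.1 in at least 3 of 6 samples. The study names edgeR, which was not used here. The deposited values are FPKM, so the main fits were on log2 values, and limma-voom on the recovered fragments was an alternative. The fits were checked on simulated fragments with known changes. For most lncRNAs the simulated samples differed by little more than counting error, less than the real replicates did. The check therefore gives no error rate at the spread of these data. Binomial intervals and the floor of 3 fragments allow for counting error alone.

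The members, thresholds and the rule for named lncRNAs were chosen with earlier results of these data known. Named were the 6 chains with the most members, the 5 of highest level, called chains and lncRNAs, and the most abundant lncRNA of each named chain. Replicate samples differed by more than sampling noise over members with 10 fragments or more (chi-square per degree of freedom 5.87 to 12.9), with a median per lncRNA of 0.91 to 1.33. These measures have different reference values under sampling noise, since the median of a chi-square lies below its mean. The alternatives are given in the closing section.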

Additional observations from a re-analysis of the deposited data

How the results depend on the processing

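The sum of the chromosome 3 chain passed the thresholds under every alternative that kept the chain as it is. The other counts moved with the settings, in the order upregulated and downregulated lncRNAs (4 and 10) and chains (1 and 4). Leaving out 1 sample gave 0 to 3 and 2 to 7 lncRNAs, 0 to 1 and 3 to 4 chains, 7 to 16 lncRNAs higher at an unadjusted p, and 0 to 1 above and 0 below their chain. The 0 upregulated lncRNAs came from leaving out an HG/PA sample, where 3 of the 4 fell under the minimum and were not tested. With no minimum, chosen after seeing the data, these 3 kept their call without each HG/PA sample, except NONRATT014519.2 without HG/PA 2. Without a trend there were 6 downregulated lncRNAs, 1 downregulated chain and 2 lncRNAs above their chain. An FPKM of at least 1 left 2 upregulated lncRNAs, 6 higher at an unadjusted p and 0 below their chain. Without a filter, and with a pseudocount of 1 or 0.01, there were 0 below their chain, with 3 above it at 0.01, and at a pseudocount of 1 the unadjusted counts were 4 and 12. A fold change of 1.5 gave 45 lower at an unadjusted p. Rescaling by the median of ratios and quantile normalization each gave 2 upregulated chains, where 2.15% and 1.91% of all tested chains were upregulated. Both the sum without the most abundant lncRNA and the mean of log2 values gave 0 and 1 chains.

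Other definitions of a chain gave other sets, which differed in size. The numbers tested in each are not given here, so the counts below are not shares and do not show how often members changed. A gap of 1000 nt gave 2 downregulated lncRNAs, 6 lower at an unadjusted p and 1 downregulated chain. A gap of 20000 nt gave 14 and 19 lncRNAs, 40 and 73 at an unadjusted p. Chains of 5 or more gave 11 and 16, 44 and 71, and 6 and 15 chains. Chains of 12 or more gave 0 and 1, 0 and 4, and 0 and 1 chains. Chains within 1 strand could not be formed, since the tables give no strand.

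Same-numbered samples did not deviate together over all tested lncRNAs (correlations of -0.017, -0.014 and -0.032). Counting error in lncRNAs with few fragments can hide a shared deviation, so these values do not settle whether the numbers pair the samples. With a replicate block 0 members were called in either direction, 0 dense chains were upregulated, and 0 members lay above and 0 below their chain. The count over all tested lncRNAs under the block is not given here, so these 0 cannot be read as particular to the members. Under the block 3 dense chains were still downregulated, on chromosomes 3, 1 and 7 (limma adjusted p = 0.010, 0.028 and 0.037). Limma-voom on fragments with a replicate block, chosen after seeing the data, gave 1 and 1 lncRNAs and 0 upregulated chains.

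Values near 0 changed sign. The share of fragments in dense chains (a difference of -2.3e-05 percentage points) was 0.134 with a gap of 1000 nt, 0.152 for chains of 12 or more, and -0.081 to 0.055 without 1 sample. Rescaling by the median of ratios and quantile normalization gave 0.11 and 0.048 for NONRATT003126.2 (-0.02), 0.052 and 0.0012 for NONRATT012067.2 and 0.10 and 0.074 for the chromosome 16 chain of 17, and the first gave 0.029 for NONRATT024449.2 (-0.10). Means of log2 values gave -0.087, -0.22, -0.12 and 0.11 for the chromosome 1 chain of 13, the chromosome 10 chain of 19, the chromosome 4 chain of 13 and the chromosome 6 chain of 10, and the sum without the most abundant lncRNA -0.10 for the chain of 19. Without 1 sample the values ran from -0.12 to 0.039 for NONRATT003126.2, -0.87 to 0.42 for NONRATT006453.2, -0.12 to 0.56 for NONRATT028611.2 and -0.051 to 0.087 for the chain of 19. The cause was not tested. Depth limits the lncRNAs near the floor of 3 fragments (0.218 to 0.240 FPM).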
